A study of Mus musculus with 6 samples.

Results

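The genes described here encode the Wnt ligands, their receptors and co-receptors, the secreted proteins that restrain them, and a few effectors inside the cell. They were picked by gene symbol alone, and 52 symbols of the deposited table matched. Of these, 35 held at least 30 counts over the 6 libraries, out of 54232 genes listed, and those 35 are described. The libraries are stranded mRNA sequencing of dissected whole tibialis anterior, a fast muscle of the lower hind leg, from C57BL6 mice aged 1 month. Wild-type mice gave 3 of them (WT 1, WT 2, WT 3), and mice whose Dmd gene lacks exon 51 gave the other 3 (dEx51 4, dEx51 5, dEx51 6). No treatment is named for either group, and the labels call the libraries of each group biological replicates without saying whether they share a litter or a day. Each library holds RNA of a whole muscle, so that fewer cells of a type and less RNA per cell cannot be told apart.

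Wnt proteins are secreted, lipid-modified ligands that bind frizzled receptors. Together with a co-receptor, Lrp5 or Lrp6, they stabilise beta-catenin, which acts with TCF and LEF factors on target genes, and Axin2 is a widely used target that feeds back on the pathway. Other Wnt signals run through the receptor tyrosine kinases Ror1 and Ror2 and do not need beta-catenin. Sfrp proteins, Frzb and Wif1 bind Wnt ligands outside the cell, several Dkk proteins act on the co-receptors, and R-spondins keep frizzled receptors at the cell surface. Dkk genes are grouped here with the secreted antagonists by family name. In skeletal muscle the pathway is known for its part in satellite cell behaviour, repair and fibrosis.

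Promoters are shown for paralogues that moved apart in the data below, so that closely related genes can be read side by side. RefSeq promoters on GRCm38.p6 were found for 22 of the 35 genes, and the 250 bases before each start site were searched on both strands for the TCF/LEF core, CAAAG led by A or T at each of the 2 positions before it. Of 26 member promoters, 4 held the motif (15.4%), against 14.8% of all 32851 RefSeq promoters. Those 4 belonged to Fzd7, Tcf7l2, Wnt11 and Wnt5b. Fzd7 was the only called gene among them, and its match starts 130 bases before the RefSeq start site (AACAAAG, in capitals). That start site lies upstream of the GENCODE gene start of Fzd7 given below (59482424). A match is a run of letters and not a shown binding site. Some of the windows searched overlap annotated exons of their own gene, with all 250 bases in Fzd10 and 229 in Frzb. Each sequence is given 5′ to 3′ on the strand of its gene. Sfrp2 is the window chr3:83766071-83766320 on the forward strand, and Sfrp5 is chr19:42202253-42202502 on the reverse strand. Fzd1 is chr5:4758217-4758466 on the reverse strand, and Fzd7 is chr1:59481897-59482146 on the forward strand.
Sfrp2: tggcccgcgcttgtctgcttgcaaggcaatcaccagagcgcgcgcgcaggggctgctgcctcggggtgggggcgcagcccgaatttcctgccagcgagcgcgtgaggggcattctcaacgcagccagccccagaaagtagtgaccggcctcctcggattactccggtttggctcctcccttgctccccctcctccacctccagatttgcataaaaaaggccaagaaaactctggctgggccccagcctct
Sfrp5: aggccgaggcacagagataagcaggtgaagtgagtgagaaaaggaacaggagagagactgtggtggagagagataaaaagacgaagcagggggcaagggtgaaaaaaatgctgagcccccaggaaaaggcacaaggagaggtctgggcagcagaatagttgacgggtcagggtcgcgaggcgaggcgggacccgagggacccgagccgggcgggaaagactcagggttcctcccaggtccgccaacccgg
Fzd1: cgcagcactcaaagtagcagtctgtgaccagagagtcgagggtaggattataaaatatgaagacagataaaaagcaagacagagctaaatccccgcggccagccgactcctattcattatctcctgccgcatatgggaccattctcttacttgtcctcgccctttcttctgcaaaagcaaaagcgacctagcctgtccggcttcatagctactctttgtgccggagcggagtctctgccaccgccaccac
Fzd7: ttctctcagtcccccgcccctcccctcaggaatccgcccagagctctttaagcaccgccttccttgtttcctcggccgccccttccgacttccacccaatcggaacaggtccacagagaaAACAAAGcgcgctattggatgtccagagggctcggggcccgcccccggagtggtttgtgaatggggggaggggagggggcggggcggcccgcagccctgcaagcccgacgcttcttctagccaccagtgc

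Totals of reads assigned to genes ran from 15681945 to 21020353 per library. Dmd checks the labels: its transcript stood at 235, 249 and 266 in the WT muscles against 47.7, 46.4 and 51.1 in the dEx51 muscles, in CPM, the usual library-scaled rate of counts, after TMM scaling (a trimmed mean of log ratios between libraries). All levels below are in this unit, with libraries in the order WT 1 to WT 3 and dEx51 4 to dEx51 6, and a level per kilobase of exon is used where different genes are compared. The tissue label was checked on 10 muscle fibre genes, some of all fibres (Acta1, Ckm, Ttn) and some of fast fibres (Myh4, Myh1, Pvalb), which together made up 154350 to 155280 CPM in WT and 96176 to 136470 CPM in dEx51. Of these Tnnc2, a fast-fibre troponin, was listed at only 0 to 1.49 CPM, and the other 9 made up nearly all of the sum. None of the 10 was called by edgeR, with 5 lower at an unadjusted p under 0.05, 6 called lower by DESeq2 and 3 by limma-voom. On the first principal component dEx51 6 lay at 21.3, nearer to the WT libraries (-41.5 to -29.2) than dEx51 4 and dEx51 5 (38.8 and 41.8). Of other cell types, all 10 macrophage markers were called higher, as were all 6 markers of differentiating myoblasts and 8 of 9 cell cycle genes (9 by DESeq2 and 4 by limma-voom). Markers of endothelium, of pericytes and smooth muscle, and of Schwann cells had 6, 5 and 6 of 10 members called lower. Among all genes tested 16.1% were called higher and 11.9% lower. Of 11 lymphocyte markers 2 could be tested and both were called higher, and the sum over the list stayed at or below 4.41 CPM, with Cd3g at 0 in all WT libraries.

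A gene was called at an edgeR quasi-likelihood adjusted p under 0.05 over all genes tested. By this rule 31 of the 35 genes could be tested, and 14 were called, 5 higher and 9 lower in dEx51 muscle. Of all 14335 genes tested 28.0% were called, 16.1% higher and 11.9% lower, so the 45.2% of the tested Wnt genes lies above that share. No test was made of this gap. The median log2 fold change of the 31 genes was -0.02, beside -0.01 for all genes tested. In 6 of the 31 tested genes (19.4%) every dEx51 library was above every WT library and in 11 (35.5%) every one was below, and among all genes tested the shares were 23.8% and 21.7%. Genes higher in dEx51 were Sfrp1, Sfrp2, Sfrp4, Fzd1 and Ror2. Genes lower were Frzb, Wif1, Sfrp5, Wnt4, Wnt5a, Fzd7, Fzd9, Lrp5 and Axin2. Called members made up 6 of 8 secreted antagonists, 3 of 10 frizzled receptors, 2 of 6 ligands tested, 2 of 4 co-receptors and other receptors, and 1 of 2 effectors. The split between higher and lower depends on scaling. Scaled to library size alone, 8 genes were called higher and 3 lower, the median of all genes tested moved to 0.34, and the whole table gave 5394 higher and 334 lower calls, where TMM gave 2309 and 1701. Each change is thus read against most other genes and is not absolute. The called members numbered 3 higher without WT 2 and 5 lower without dEx51 4 or without dEx51 5. Without dEx51 6 they were again 5 higher and 9 lower, 13 of them shared, with Fzd2 in place of Ror2. Sfrp1, Sfrp2, Fzd1, Frzb, Wif1 and Fzd7 kept their call under all 14 alternatives run for each gene.

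**Figure D1:**
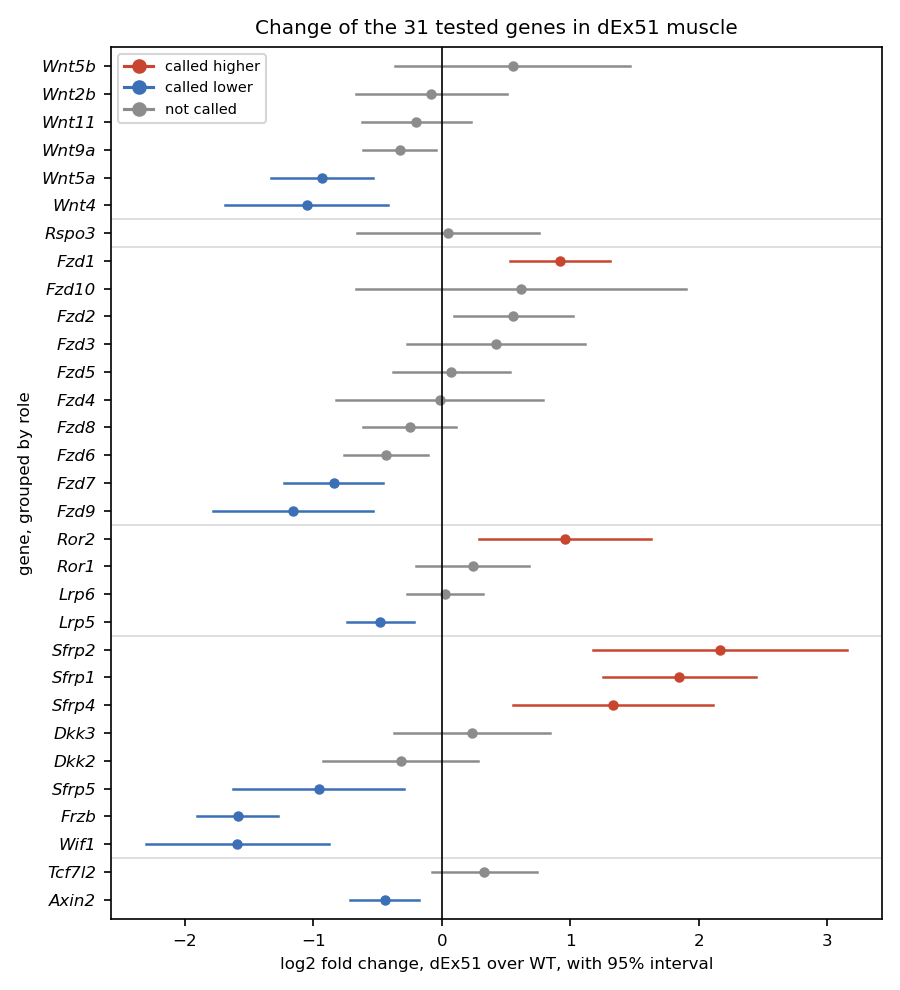
Log2 fold change of dEx51 over WT (horizontal axis) for the 31 tested genes, grouped by role, as the edgeR estimate with its 95% interval over 3 libraries a group. Red marks genes called higher, blue genes called lower and grey genes that were not called, and Sfrp2 and Wif1 lie at the ends of the range, at 2.16 and -1.59.

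The order of the levels was led by receptors. Per kilobase of exon, Fzd4 stood highest over the 6 libraries, at a mean of 34.3 CPM, followed by Lrp6 (11.0), Fzd7 (9.48), Lrp5 (4.49) and the ligand Wnt9a (4.35). In WT Fzd7 was at 12.2 ± 0.915 (SD, n = 3) and Lrp6 at 10.9 ± 0.443, which do not differ beyond their spread. In dEx51 Fzd7 was at 6.80 ± 1.73, below Lrp6 at 11.1 ± 1.83. In WT Lrp5 (5.23 ± 0.489), Frzb (5.18 ± 0.208), Wnt9a (4.84 ± 0.642) and Fzd9 (4.61 ± 1.49) do not differ beyond their spread. Among the secreted antagonists Frzb was the highest in WT (5.18 ± 0.208 CPM per kilobase) and Wif1 the next (2.99 ± 0.962). In dEx51 the highest was Sfrp1 (1.85 ± 0.621), beside Frzb at 1.73 ± 0.272 and Dkk3 at 1.67 ± 0.592, which do not differ beyond their spread. The lowest of the 35 genes was Lgr5, a receptor for R-spondins, at 0.0370, from 45 counts in all.

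**Figure D2:**
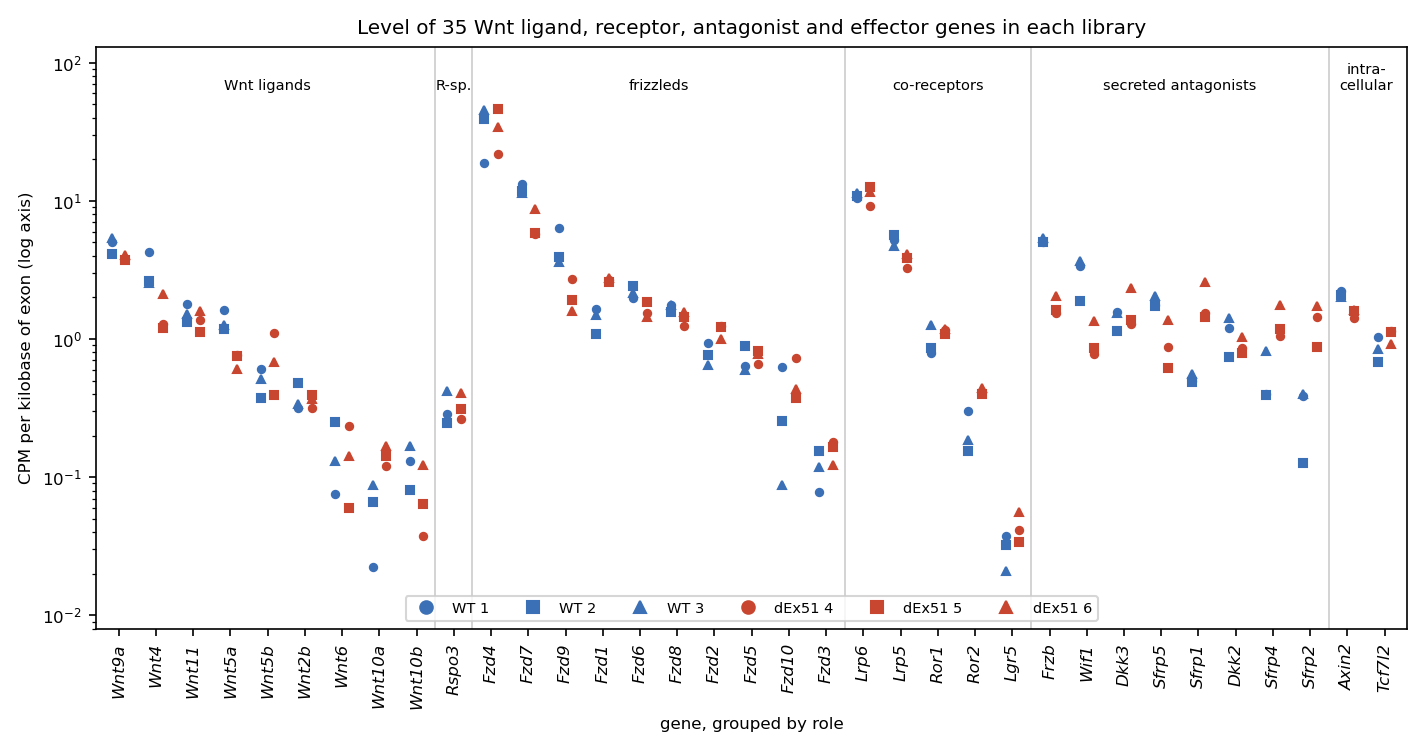
Level of each of the 35 genes (vertical axis, CPM per kilobase of exon, log axis) in the 3 WT libraries (blue) and the 3 dEx51 libraries (red), with a symbol for each library. Fzd4 is the highest gene with a mean of 34.3, and the red points of Sfrp1, Sfrp2 and Sfrp4 lie above all blue points of the same gene.

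Among the ligands, Wnt4 and Wnt5a fell and the most abundant ligand, Wnt9a, was not called. Wnt5a (chromosome 14, 28504750 to 28527448), best known for signals that do not need beta-catenin, measured 12.7, 9.21 and 9.81 CPM in the WT muscles against 6.03, 5.86 and 4.73 CPM in the dEx51 muscles. Every dEx51 library lay below every WT library, and dEx51 6 was the lowest. Its log2 fold change was -0.93 (SE 0.172, edgeR adjusted p = 0.00691), or -0.58 with adjusted p = 0.0556 when scaled to library size alone. Wnt4 (chromosome 4, 137277489 to 137299726), a ligand known from kidney and neuromuscular development, measured 17.8, 11.0 and 10.7 CPM in the WT muscles against 5.35, 5.03 and 8.83 CPM in the dEx51 muscles. WT 1 was well above the other WT libraries, and dEx51 6 came closest to WT (-1.05, SE 0.275, edgeR adjusted p = 0.0248). The call of Wnt4 ended without WT 1 (-0.77), dEx51 4 (-0.94) or dEx51 5 (-0.89), and under library-size scaling (-0.72).

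Wnt9a (chromosome 11, 59306928 to 59333552), a ligand known from joint and limb development, measured 16.7, 13.8 and 17.9 CPM in the WT muscles against 12.5, 12.3 and 13.6 CPM in the dEx51 muscles. All dEx51 values lay just below all WT values, and the gene was not called (-0.33, 95% interval -0.61 to -0.04, edgeR adjusted p = 0.0838). Scaled to library size alone its sign turned (0.02). The authors' deposited table calls Wnt9a lower (-0.36, adjusted p = 0.0365). Wnt11 (-0.20, 95% interval -0.62 to 0.23), Wnt2b (-0.08, -0.67 to 0.51) and Wnt5b (0.55, -0.36 to 1.46) were not called. In Wnt5b dEx51 4 was the highest library at 2.91 CPM, and dEx51 5 (1.05 CPM) and dEx51 6 (1.82 CPM) were nearer to WT. No ligand was called higher by edgeR, with 0 at an unadjusted p under 0.05 and 0 by DESeq2 or limma-voom.

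A further 3 ligand genes were too low to be tested. Wnt10a held 1, 3 and 3 counts in the WT muscles against 7, 8 and 8 counts in the dEx51 muscles, with no overlap in CPM. Wnt6 held 3, 10 and 4 counts in WT and 12, 3 and 6 in dEx51, and Wnt10b 8, 5 and 8 in WT and 3, 5 and 8 in dEx51. With no filter on low counts none of the 3 was called (edgeR adjusted p = 0.214, 0.952 and 0.492). Levels of the 9 ligands per kilobase summed to 12.1 ± 1.67 CPM in WT and 8.90 ± 1.03 CPM in dEx51, without overlap. Scaled to library size alone the sums overlapped, at 9.14 to 12.4 CPM across WT and 9.31 to 10.5 CPM across dEx51. Sums, shares and ratios over these genes were given only an exact permutation test over the splits of 6 libraries into 3 and 3. Its smallest possible p is 0.1, so it could call none of them, and they are given as descriptions. Shares of that sum do not depend on library scaling. Wnt4 went from 25.6 ± 4.72% to 16.9 ± 3.82% and Wnt5a from 11.1 ± 0.622% to 8.09 ± 1.78%. The groups lay apart for Wnt5a, while for Wnt4 WT 3 and dEx51 6 were level, both at 21.3%. Wnt11, Wnt5b and Wnt10a took a larger share in every dEx51 library than in any WT library. Wnt11 went from 12.8 ± 0.176% to 15.2 ± 0.914%, Wnt5b from 4.06 ± 0.462% to 8.06 ± 3.71% and Wnt10a from 0.508 ± 0.304% to 1.62 ± 0.240%. The CPM levels of Wnt11 and Wnt5b overlapped between groups.

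Of the 10 frizzled receptors, Fzd1 rose, Fzd7 and Fzd9 fell and 7 were not called. Fzd7, a receptor known in satellite cells (chromosome 1, 59482424 to 59486955), measured 59.8, 53.4 and 52.1 CPM in the WT muscles against 25.9, 26.6 and 39.9 CPM in the dEx51 muscles. The WT libraries were close together, and dEx51 6 lay between them and the other dEx51 libraries. Its log2 fold change was -0.84 (SE 0.168, edgeR adjusted p = 0.00913), and -0.51 when scaled to library size alone. The sums over 8 satellite cell markers were 46.9 to 51.0 CPM in the WT muscles against 61.8 to 80.6 CPM in the dEx51 muscles. Of the 8, 2 were called higher (Vcam1 and Megf10) and none lower, beside 16.1% and 11.9% of all genes tested. Vcam1 made the largest part of the gap between the sums, going from 6.64 ± 1.41 to 22.3 ± 3.55 CPM. Megf10 went from 4.19 ± 0.542 to 9.02 ± 0.119 CPM. Among the uncalled markers Pax7, Myf5 and Cdh15 had higher means in dEx51, and Heyl, Calcr and Chrdl2 lower means. The sum is thus not a rise shared by the whole list. The part of satellite cells in the Fzd7 value was not tested.

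Fzd1 (chromosome 5, 4753839 to 4758035) measured 6.97, 4.55 and 6.30 CPM in the WT muscles against 11.2, 10.8 and 11.7 CPM in the dEx51 muscles. The 3 dEx51 libraries were nearly level and well above WT, with a log2 fold change of 0.92 (SE 0.168, edgeR adjusted p = 0.00664). Fzd9 (chromosome 5, 135248938 to 135251230) measured 14.5, 8.99 and 8.24 CPM in the WT muscles against 6.20, 4.37 and 3.63 CPM in the dEx51 muscles. Its change was -1.16 (SE 0.271, edgeR adjusted p = 0.0165), and the call ended without dEx51 5 (-1.08) and under library-size scaling (-0.80).

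Fzd4, a receptor that also binds the ligand norrin and is known in endothelium, varied far more within the groups than between them. Its level was 127, 264 and 304 CPM in the WT muscles against 147, 311 and 228 CPM in the dEx51 muscles. WT 1 and dEx51 4 were the low libraries, and the log2 fold change was -0.02 (95% interval -0.82 to 0.79, edgeR adjusted p = 0.976). The same libraries were lowest in the summed level of 8 adipocyte markers, at 374 and 395 CPM against 599 to 861 CPM in the other 4 libraries. This order came from Plin4, and without it the sums were 188, 167 and 271 CPM in WT and 170, 283 and 166 CPM in dEx51, lowest in dEx51 6 and WT 2. Sums over 10 endothelial markers ran from 580 to 665 CPM in the WT muscles against 406 to 501 CPM in the dEx51 muscles, and WT 1 was the highest. That place of WT 1 came from Kdr, at 108 CPM there against 49.1 CPM in WT 2 and 47.8 CPM in WT 3. The part of these cells in Fzd4 was not tested. WT 1 and dEx51 4 also share replicate number 1. Residuals of that pair correlated at 0.426, against 0.036 and 0.089 for the pairs numbered 2 and 3. With a block for replicate number the SE of Fzd4 was 0.147 in place of 0.350, and Fzd4 was still not called (0.01). What the shared number stands for is not stated, and its part in the low values was not tested. Fzd4 took 40.9 to 67.4% of the summed frizzled level in WT and 56.7 to 74.0% in dEx51. Over all 10 receptors the sums overlapped, at 58.5 ± 11.1 CPM per kilobase in WT and 51.2 ± 12.1 in dEx51. Without Fzd4 the other 9 receptors summed to 24.0 ± 2.81 CPM per kilobase in WT against 17.2 ± 1.21 in dEx51, and the groups did not meet. Scaled to library size alone the sums without Fzd4 were 21.3 ± 2.74 and 19.3 ± 0.0963. The lowest WT library then lay just above the highest dEx51 library. Among the 9, Fzd7 went from 12.2 to 6.80 and Fzd9 from 4.61 to 2.07 CPM per kilobase. Means of Fzd6 and Fzd8 were also lower in dEx51, and those of Fzd1, Fzd2, Fzd3, Fzd5 and Fzd10 were higher. The lower sum was thus not a fall shared by all 9.

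Fzd2 and Fzd6 lay close to the threshold. Fzd2 measured 3.43, 2.79 and 2.36 CPM in the WT muscles against 4.53, 4.46 and 3.69 CPM in the dEx51 muscles, without overlap (0.56, edgeR adjusted p = 0.0726). It was called without dEx51 6 (0.64, adjusted p = 0.0497) and under library-size scaling (0.91, adjusted p = 0.0164). Fzd6 measured 9.57, 11.7 and 10.5 CPM in the WT muscles against 7.49, 8.92 and 7.01 CPM in the dEx51 muscles, also without overlap (-0.44, edgeR adjusted p = 0.0536). A likelihood-ratio test called it lower (adjusted p = 0.0443), as does the authors' deposited table (-0.47, adjusted p = 0.0313). The remaining receptors overlapped between groups, with log2 fold changes of -0.25 for Fzd8, 0.07 for Fzd5, 0.42 for Fzd3 and 0.62 for Fzd10. Fzd10 ran from 0.286 to 2.05 CPM within WT alone.

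The co-receptors Lrp5 and Lrp6 differed in their calls. Lrp5 (chromosome 19, 3584828 to 3686564) measured 51.1, 55.6 and 46.1 CPM in the WT muscles against 32.0, 37.8 and 39.9 CPM in the dEx51 muscles, below WT in every library (-0.48, SE 0.113, edgeR adjusted p = 0.0170). Its call did not survive removal of WT 2 (-0.42) or of dEx51 4 (-0.39), nor library-size scaling (-0.13). Lrp6 measured 144, 149 and 156 CPM in the WT muscles against 125, 174 and 158 CPM in the dEx51 muscles and was not called (0.02, 95% interval -0.27 to 0.32, edgeR adjusted p = 0.903). It was called higher when scaled to library size alone (0.38, adjusted p = 0.0499). The ratio of the co-receptors does not depend on scaling. Per kilobase, Lrp6 over Lrp5 was 2.00, 1.91 and 2.41 in WT and 2.77, 3.28 and 2.82 in dEx51. All dEx51 ratios were above all WT ratios.

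Ror2 (chromosome 13, 53109312 to 53286124), a receptor for Wnt5a, was low and rose from 1.27, 0.658 and 0.788 CPM in the WT muscles to 1.75, 1.71 and 1.87 CPM in the dEx51 muscles. These values rest on 11 to 41 counts a library. The dEx51 libraries were level with each other (0.96, SE 0.290, edgeR adjusted p = 0.0419). Removing WT 2 (0.75), WT 3 (0.87), dEx51 4 (0.97), dEx51 5 (1.00) or dEx51 6 (0.92) ended the call, as did DESeq2 (0.96, adjusted p = 0.0684). Its relative Ror1 overlapped between groups (0.24, 95% interval -0.20 to 0.68). Lgr5 held 3 to 7 counts in WT and 8 to 11 in dEx51 and was not tested. Rspo3, the R-spondin with the most counts, overlapped between groups (0.05, 95% interval -0.66 to 0.76).

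The secreted antagonists moved apart most clearly: Sfrp1, Sfrp2 and Sfrp4 rose while Frzb, Wif1 and Sfrp5 fell. Frzb (chromosome 2, 80411970 to 80447625), a Wnt-binding protein first described in cartilage, measured 16.4, 16.4 and 17.5 CPM in the WT muscles against 4.96, 5.21 and 6.59 CPM in the dEx51 muscles. Both groups were tight and far apart, with a log2 fold change of -1.59 (SE 0.137, edgeR adjusted p = 4.71e-04). Wif1 (chromosome 10, 121033960 to 121100650), which binds Wnt ligands through its WIF domain, measured 8.24, 4.60 and 8.95 CPM in the WT muscles against 1.88, 2.10 and 3.27 CPM in the dEx51 muscles. WT 2 was the lowest WT library and still above all dEx51 libraries (-1.59, SE 0.309, edgeR adjusted p = 0.00834).

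Sfrp1 (chromosome 8, 23411502 to 23449632) measured 2.16, 2.14 and 2.44 CPM in the WT muscles against 6.76, 6.30 and 11.2 CPM in the dEx51 muscles. The WT libraries were nearly equal and dEx51 6 was the highest (1.85, SE 0.258, edgeR adjusted p = 0.00249). Sfrp2 (chromosome 3, 83766321 to 83774316) stood at 0.830, 0.274 and 0.859 CPM in WT, from 5 to 15 counts a library, and at 3.12, 1.88 and 3.74 CPM in dEx51. WT 2 was the lowest library and dEx51 6 the highest (2.16, SE 0.429, edgeR adjusted p = 0.00885). A gene on the opposite strand shares 347 exon bases with Sfrp2, and strand use in counting was not given in the sources used here. Overlaps of this kind also touch Fzd5, Fzd6, Axin2, Wnt5a, Wnt11 and Rspo3, whose values are uncertain to that extent.

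Sfrp4 (chromosome 13, 19623104 to 19632994) measured 1.66, 1.64 and 3.44 CPM in the WT muscles against 4.36, 4.94 and 7.43 CPM in the dEx51 muscles. WT 3 was the highest WT library and dEx51 4 the nearest to it (1.33, SE 0.337, edgeR adjusted p = 0.0219). The call ended without WT 1 (1.15) and without WT 2 (1.14). Sfrp5 (chromosome 19, 42197971 to 42202252) went the other way, at 3.38, 3.29 and 3.87 CPM in the WT muscles against 1.67, 1.18 and 2.60 CPM in the dEx51 muscles. The spread lay in the dEx51 group (-0.96, SE 0.289, edgeR adjusted p = 0.0411). Removing WT 1 (-0.99), WT 2 (-1.01), WT 3 (-0.89), dEx51 4 (-0.90) or dEx51 5 (-0.71) ended the call of Sfrp5, as did library-size scaling (-0.62).

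The make-up of these 6 Wnt-binding antagonists is free of library scaling. Per kilobase, Sfrp1, Sfrp2 and Sfrp4 together made up 11.1, 10.4 and 13.8% of the sum in the WT muscles, and 55.9, 53.1 and 56.1% in the dEx51 muscles. The groups were tight and lay 43.3 percentage points apart. These 3 genes were grouped after their values were seen, so the size of the gap is a description. Frzb went from 46.0 ± 5.43% to 21.5 ± 2.80% and Wif1 from 25.9 ± 5.49% to 12.1 ± 1.23%. The sum itself overlapped between groups, at 11.4 ± 1.62 CPM per kilobase in WT and 8.22 ± 2.29 in dEx51.

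**Figure D3:**
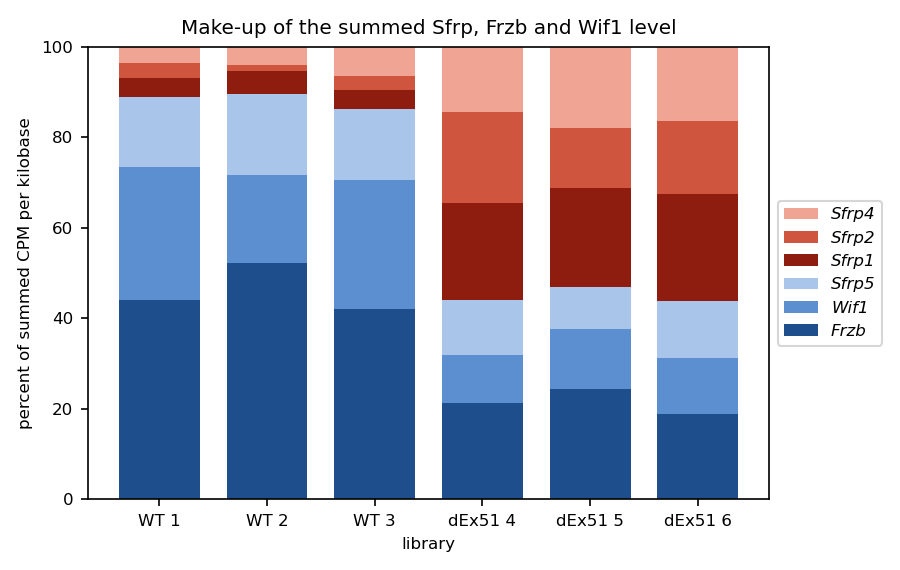
Stacked bars of the share (vertical axis, percent) that each of the 6 genes takes of their summed CPM per kilobase in each library (horizontal axis). Blue shades are genes called lower in dEx51 and red shades genes called higher, and the red part goes from 10.4 to 13.8% in WT to 53.1 to 56.1% in dEx51.

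Cell markers moved beside these genes. Of 10 markers of fibro-adipogenic progenitors, the mesenchymal cells of muscle, 6 were called higher, and their sums ran from 1176 to 1514 CPM in the WT muscles against 1564 to 2169 CPM in the dEx51 muscles, the highest in dEx51 6. That maximum came from Gsn and Dcn, which were not called. The sums over the other 8 markers were 237 to 308 CPM in WT, and 562, 528 and 523 CPM in dEx51 4 to 6, lowest in dEx51 6. Sfrp1, Sfrp2 and Sfrp4 were highest in dEx51 6, as was the called marker Pdgfra. The called marker Col14a1 was nearly level in dEx51 6 and dEx51 4, at 70.5 and 69.8 CPM. The called markers Dpt, Mfap5, Lum and Ly6a were lowest in dEx51 6 among the dEx51 libraries. No marker of that list was at 0 in either group. Sums over 8 tenocyte markers overlapped between groups, at 398 to 694 CPM and 576 to 786 CPM. Of these 8, 1 was called higher, beside 16.1% of all genes tested. Sums over 10 Schwann cell markers were lower, at 110 to 120 CPM in the WT muscles against 77.3 to 81.4 CPM in the dEx51 muscles. The part of each cell type in the antagonist genes was not tested. Dkk2 and Dkk3, the other genes above the count minimum that are grouped with the antagonists, were not called (-0.32, 95% interval -0.92 to 0.28, and 0.23, -0.37 to 0.84). In Dkk3 dEx51 6 stood highest, at 7.89 CPM against 4.32 and 4.59 CPM in the other dEx51 libraries and 3.84 to 5.26 CPM in WT.

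**Figure D4:**
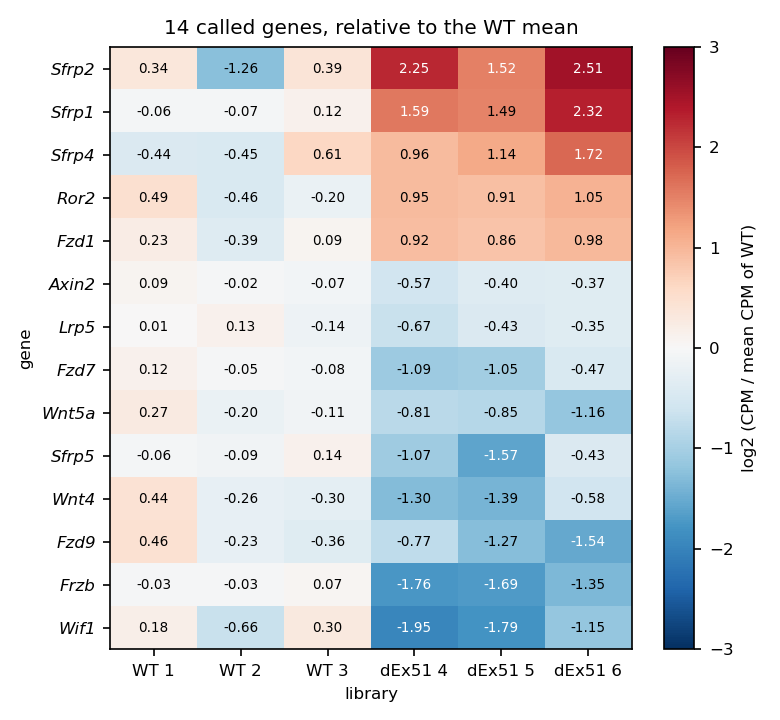
Each called gene (rows) in each library (columns), as log2 of its CPM over the mean CPM of WT, with the value in each cell, red above and blue below the WT mean. In the dEx51 6 column Sfrp1, Sfrp2 and Sfrp4 are furthest above WT, at 2.32, 2.51 and 1.72, while Lrp5, Axin2, Sfrp5 and Fzd7 are nearest to WT, at -0.35, -0.37, -0.43 and -0.47.

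The dEx51 6 library did not stand closer to WT for every member. On the log2 scale, its difference from WT as a percentage of the mean difference in dEx51 4 and dEx51 5 was 32.8% for Sfrp5, 41.1% for Wnt4 and 43.5% for Fzd7. It was 131% for Sfrp2, 151% for Sfrp1, 160% for Sfrp4, 153% for Fzd9 and 141% for Wnt5a. In the same library the macrophage and cell cycle sums were the lowest of the dEx51 group, at 557 and 48.6 CPM. In dEx51 4 they were 789 and 147 CPM, and in dEx51 5 they were 1212 and 179 CPM.

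Inside the cell, Axin2 was lower and Tcf7l2 was not called. Axin2 (chromosome 11, 108920349 to 108950783), the feedback target named above, measured 12.3, 11.4 and 11.0 CPM in the WT muscles against 7.83, 8.79 and 8.98 CPM in the dEx51 muscles. All dEx51 libraries were below all WT libraries (-0.44, SE 0.117, edgeR adjusted p = 0.0254). Removing WT 1 (-0.40), WT 2 (-0.46), dEx51 4 (-0.38) or dEx51 5 (-0.45) ended the call, as did fitting with no filter on low counts (-0.43) and library-size scaling (-0.09). Tcf7l2, a TCF factor, measured 8.96, 5.92 and 7.38 CPM in the WT muscles against 9.97, 9.89 and 8.10 CPM in the dEx51 muscles (0.33, 95% interval -0.08 to 0.74, edgeR adjusted p = 0.198). It was called higher under library-size scaling (0.69, adjusted p = 0.0334). Lef1 held 27 counts in all and fell under the minimum.

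The other 17 symbols of the family held fewer than 30 counts. Wnt7b held 3, 2 and 0 counts in WT and 9, 14 and 1 in dEx51, and Rspo4 held 0, 1 and 0 in WT and 8, 6 and 3 in dEx51. Wnt9b had 0 counts in WT and 2 counts in each dEx51 library. Wnt16, Wnt2, Rspo1, Dkkl1, Wnt1, Wnt8b, Rspo2, Wnt3, Dkk4 and Dkk1 held 1 to 16 counts over the 6 libraries, and Wnt3a, Wnt7a and Wnt8a held none.

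Genes of the pathway outside the family were read from lists of known pathway members. Of 87 such genes found, 76 were tested, and 14 were called higher and 11 lower (32.9%, beside 28.0% of all genes tested), with a median log2 fold change of -0.06. The number called was 13 without WT 2, 14 without dEx51 4 and 15 without dEx51 5. Over all genes tested 16.1% were called higher and 11.9% lower, and the counts of each list below stand beside these shares. Wls, which carries Wnt proteins to the cell surface, rose from 31.5, 30.6 and 32.1 CPM in the WT muscles to 52.3, 51.0 and 52.7 CPM in the dEx51 muscles. The libraries within each group were almost level (0.73, SE 0.0765, edgeR adjusted p = 9.41e-04). Porcn, the enzyme that adds the lipid to Wnt proteins, was not called (-0.15). Lgr4, an R-spondin receptor like Lgr5, measured 60.9, 68.6 and 61.5 CPM in the WT muscles against 35.5, 38.2 and 42.6 CPM in the dEx51 muscles (-0.72, SE 0.0997, edgeR adjusted p = 0.00245). The ligase gene Znrf3, which removes frizzled receptors from the surface, had no overlap between groups and was not called (-0.39, edgeR adjusted p = 0.0613).

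Among 13 genes of beta-catenin and its destruction complex 3 were called lower, Tnks2 (-0.31), Csnk1e (-0.39) and Gsk3a (-0.33), and Csnk1a1 was at 0.03. The 3 called genes each lost the call in at least 5 alternatives, and scaled to library size alone Tnks2 and Gsk3a turned to 0.04 and 0.02. None of 3 Dishevelled genes and none of 4 glypican genes was called by edgeR, DESeq2 or limma-voom, with 1 of each list at an unadjusted p under 0.05. Dvl1, Dvl2 and Dvl3 were at -0.25, 0.06 and -0.08, and Gpc3, Gpc4 and Gpc6 at -0.37, 0.10 and 0.26. Of 15 nuclear factors 2 were called higher and 3 lower. Pygo1, a beta-catenin cofactor, was at 62.0 ± 3.90 CPM in the WT muscles against 35.2 ± 5.60 CPM in the dEx51 muscles (-0.82, SE 0.123). Aes, a short Groucho-type corepressor, was at 401 ± 51.8 and 237 ± 8.87 CPM (-0.76, SE 0.116). The corepressor gene Tle3 rose (0.66, SE 0.117), and Tle1 was lower (-0.50) and lost the call without WT 2 (-0.47), WT 3 (-0.49) or dEx51 4 (-0.37) and under library-size scaling (-0.14).

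Of 12 further antagonists tested 5 were called higher and 3 lower, with a median of -0.01. Cthrc1, a secreted matrix protein that binds Wnt proteins and is not a plain antagonist, rose from 0.900 ± 0.482 to 7.93 ± 2.82 CPM (3.18, SE 0.416, edgeR adjusted p = 0.00199). The others called higher were Tpbg (1.63), Dact1 (0.72), Dact3 (0.70) and Igfbp4 (0.52). DESeq2 called 4 of the list higher and limma-voom 5. Shisa3, which holds frizzled receptors inside the cell, fell from 3.96 ± 0.764 to 1.22 ± 0.386 CPM (-1.71, SE 0.277). Kremen1, a Dkk receptor, and Nkd1, an inhibitor of Dishevelled, were called lower at -0.43 and -1.06. Kremen1 lost its call without dEx51 5 (-0.41) and under library-size scaling (-0.08). Nkd1 lost its call without WT 1 (-0.96), WT 2 (-1.08), dEx51 4 (-0.94) or dEx51 5 (-1.05), and under library-size scaling (-0.72). Of 16 genes of planar polarity and other Wnt receptors 2 were called higher, Ptk7 (0.93) and Celsr3 (1.03), and 1 lower, Celsr2 (-1.27, SE 0.203), while Musk was at 0.53. Ptk7 lost its call without WT 2 (0.88), WT 3 (0.87) or dEx51 5 (0.82). Celsr3 lost its call without WT 1 (1.15), WT 2 (0.93), WT 3 (1.00) or dEx51 4 (0.79), and with DESeq2 and limma-voom.

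Of 13 widely used target genes 5 were called higher and 1, Nkd1, lower, with a median of 0.79. Among all genes tested 16.1% were called higher and 11.9% lower, with a median of -0.01. Cd44, a hyaluronan receptor that is also high in leukocytes, rose from 14.5, 8.38 and 13.7 CPM in the WT muscles to 76.6, 75.5 and 43.5 CPM in the dEx51 muscles (2.42, SE 0.272, edgeR adjusted p = 0.00115). Nrcam (2.27, SE 0.480) and Wisp1 (1.32, SE 0.311) rose as well, and Wisp1 lost its call without dEx51 4 (1.15). Sums over 10 macrophage markers ran from 64.5 to 126 CPM in the WT muscles against 557 to 1212 CPM in the dEx51 muscles, with the lowest dEx51 value in dEx51 6, as for Cd44. Their part in these target genes was not tested. Nkd1, like Axin2, is a feedback gene of the pathway, and both were called lower beside the 5 targets called higher. Those 5 also held Myc (1.01) and the TCF factor gene Tcf7 (1.06, edgeR adjusted p = 0.0245). The calls of Nkd1 and Axin2 both ended under library-size scaling.

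The authors' deposited table lists the same 31 genes and calls 5 of them higher and 11 lower. Of the 13958 genes it holds, 37.9% are called, 19.1% higher and 18.8% lower. All 14 calls made here are in it with the same sign, and the further 2 are Fzd6 and Wnt9a.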

How the data were processed

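Per the file headers, the deposited tables hold unnormalized counts for each gene with its exon length, and a comparison table with log2 fold changes, a likelihood-ratio score, p-values and -log10 p-values. Counting with featureCounts 1.6.0, read checks with FastQC 0.11.4 and testing with edgeR 3.30.1 on GRCm38 (mm10) are listed in the submitters' processing notes. Aligner, annotation release and strand setting: not given in the sources used here. A further deposited table of RPKM values was not used.

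The count table of 54232 genes was fitted whole with edgeR 4.0.16 in R 4.3.3: filterByExpr by genotype, TMM scaling, a quasi-likelihood F-test (two-sided) and Benjamini-Hochberg adjustment over 14335 genes, checked on simulated counts. Standard errors were taken from the F statistic, and intervals are 95%. Depth was 15681945 to 21020353 counts a library. Since nothing states separate litters or days, p-values measure only the spread between these libraries. Alternatives were other scalings, filters, DESeq2 1.42.0, limma-voom 3.58.1, a likelihood-ratio test, a replicate block and leaving out each library. The share of Sfrp1, Sfrp2 and Sfrp4, with its alternatives, sums of 2 marker lists without single genes, and family sums by library size were added after seeing the data.

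Members and lists were chosen with earlier results of these data known. All members of at least 30 counts are named; those called, and the 5 highest per kilobase, are given by library. Of each pathway list the rule names 3 members on the side of the list's median, by adjusted p, and 1 on the other side. The remaining called genes of the lists of further antagonists and of target genes are named too. A planned search for genes most like each called member was left out, since 6 libraries in 2 groups are too few for it. Positions are from the GENCODE annotation of GRCm38, which held all 35 members.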

Additional observations from a re-analysis of the deposited data

How the results depend on the processing

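Of the 14 called Wnt genes, 6 kept the call and 14 kept the sign in all 14 alternatives. Scaled to library size alone, calls over all genes were 5394 higher and 334 lower and those of the Wnt genes 8 and 3. Leaving out each library in turn gave 2009 to 4819 calls over all genes (1346 to 2662 higher, 663 to 2157 lower), 3 to 5 Wnt genes higher, 5 to 9 lower and 13 to 32 pathway genes. Fewer samples enter these fits, and the cause of the shifts was not tested further. The lowest total was without WT 2. A minimum of 10 or 100 counts in place of 30 left the Wnt calls at 5 and 9.

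None of the genes that changed sign was called, apart from Gsk3a and Tnks2. Fzd4 changed sign with library size (0.34), no filter (0.0003), limma-voom (0.0063) and the replicate block (0.0129). Under library size alone Fzd8 (0.0959), Wnt9a (0.0178), Wnt11 (0.1438), Wnt2b (0.2725), Dkk2 (0.0189), Porcn (0.1955), Dvl1 (0.1009), Dvl3 (0.2746), Gsk3a (0.0193) and Tnks2 (0.0440) turned positive. Leaving out a library spanned 0 for Fzd4 (-0.3197 to 0.2215), Lrp6 (-0.0713 to 0.1497), Fzd5 (-0.0365 to 0.2697), Rspo3 (-0.1220 to 0.2678), Wnt2b (-0.2113 to 0.1289), Dkk3 (-0.0897 to 0.3913), Gpc4 (-0.0912 to 0.3931), Dvl2 (-0.0461 to 0.1304) and Csnk1a1 (-0.0321 to 0.0873).

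Replicate numbers 1 to 3 recur in both groups. With a replicate block 5 Wnt genes were called higher and 10 lower (Fzd6 was added), and 4468 genes in all. Residuals of same-numbered libraries correlated at 0.426, 0.036 and 0.089, and 2 of 6 libraries correlated best with their own number, so the numbers were not taken as pairs. Genes of few counts, such as Ror2 and the untested Wnt10a, are limited by depth.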
